A study of Mus musculus with 152 samples.

Results

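The genes described here are named for the protein parts of the ribosome of the cytosol and of the ribosome inside mitochondria, and were measured as RNA in mouse liver. A name does not ensure that each product is part of a ribosome. They were chosen by symbol alone: cytosolic genes start with Rpl or Rps, or are Rplp0, Rplp1 or Rplp2, and mitochondrial genes start with Mrpl or Mrps. Genes named as pseudogenes by the ending -ps were left out. Of 160 matching symbols, 82 were cytosolic (51 of the large and 31 of the small subunit) and 78 mitochondrial (49 and 29). Above 0 in at least 1 library were 158 of them, 81 cytosolic and 77 mitochondrial, of 54532 genes in the tables. Rpl10l and Mrpl53 were listed at 0 in every library. Rpl32l, Rpl6l and Rps4l match the symbol rule but are annotated as pseudogenes, and they were kept because the rule keeps them.

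The animals were of the inbred strain C57BL/6J, and the labels name no introduced allele. Feeding began at 8 weeks of age with either LIDPAD, which induces non-alcoholic fatty liver disease (NAFLD), or the study's purified control diet, and lasted 1, 4, 8, 12, 16, 32 or 48 weeks. Each feeding duration has its own control group, so diet was compared within a week, and neither sex nor the hour of collection is given in the labels. The 152 deposited columns fell into blocks of 4 that differed by no more than parts of a single library do, and each block was counted as 1 library. That gave 38 libraries: 2 control and 2 LIDPAD at weeks 1, 4, 8 and 12, 3 and 3 at week 16, 4 and 5 at week 32, and 3 and 4 at week 48. The labels do not tie libraries to separate animals, so p-values measure only how far these libraries spread, and that spread may be technical.

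A ribosome joins amino acids in the order a messenger RNA gives. The cytosolic ribosome makes nearly all proteins of the cell, and in the liver these include albumin and the other secreted plasma proteins. The mitochondrial ribosome makes only the few respiratory chain proteins that the mitochondrial genome encodes. Its own proteins are encoded in the nucleus and imported, whereas its rRNAs are made inside the mitochondrion. Messenger RNAs of cytosolic ribosomal proteins typically begin with a C and a run of pyrimidines, the 5′ terminal oligopyrimidine (TOP) motif, through which their translation follows nutrient signals that pass mTORC1 and the RNA-binding protein LARP1.

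The start regions of a few members of both gene families are printed to show the motifs searched. Sequences are from RefSeq with the build GRCm38.p6, whose table held 60 of the 82 cytosolic and 69 of the 78 mitochondrial symbols. It had no entry for Rpl3, Rpl36, Mrpl15 or Mrpl54. Each line runs 5′ to 3′ on the gene's strand, with 10 bases before the annotated start and 20 from it. Capitals mark the C at the annotated start and the pyrimidines (C or T) that follow it. The genes are Rps18 (chr17:33955646-33955675, minus strand), Rpl28 (chr7:4792955-4792984, plus strand), Rps6 (chr4:86857348-86857377, minus strand), Rps27 (chr3:90213629-90213658, minus strand) and Rpl38 (chr11:114668570-114668599, plus strand).
Rps18: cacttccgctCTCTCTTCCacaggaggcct
Rpl28: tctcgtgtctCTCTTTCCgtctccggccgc
Rps6: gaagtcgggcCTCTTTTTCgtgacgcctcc
Rps27: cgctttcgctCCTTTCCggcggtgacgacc
Rpl38: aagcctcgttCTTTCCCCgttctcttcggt

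A TOP start, defined here as C at the annotated start followed by at least 4 pyrimidines, was found in 14 of 60 cytosolic genes (23.3%), among them the pseudogene Rpl32l. It was found in 0 of 69 mitochondrial genes and in 2.97% of other genes. An annotated start that lies a few bases off hides the motif, so no match says only that these letters are not at that position. AAGATGGC, the core bound by the factor YY1, was searched on both strands over the 300 bases from 250 before to 50 after the start. It was present in 17.4% of mitochondrial, 8.33% of cytosolic and 3.14% of other genes, which is 12 of 69 and 5 of 60 for the ribosomal families, with no test. CCGGAAGT, the core bound by ETS factors, was present in 18.3% of cytosolic, 17.4% of mitochondrial and 4.24% of other genes. The palindromic core bound by NRF1, a factor that drives many nuclear genes for mitochondria, was present in 3.33%, 4.35% and 1.06%. The motifs share no stretch long enough to count 1 position under 2 names, and a match is a description of letters, not a binding site. Examples of the YY1 core, in capitals, are Mrps18a (chr17:46111004-46111033, plus strand), Mrps27 (chr13:99344789-99344818, plus strand) and Mrps7 (chr11:115604147-115604176, plus strand). Mrpl3 (chr9:105053238-105053267, plus strand) shows the ETS core.
Mrps18a: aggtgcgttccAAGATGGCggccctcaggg
Mrps27: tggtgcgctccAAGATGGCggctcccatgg
Mrps7: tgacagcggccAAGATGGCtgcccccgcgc
Mrpl3: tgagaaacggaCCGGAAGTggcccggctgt

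Values are in FPM, the deposited unit (counts of a gene scaled by a size factor, per 1000000). A library's FPM is the mean of its columns. Each week's table was scaled on its own, so differences are given within a week. Depth was 10.9 to 53.8 M reads (M, 1000000) per library, with a median of 29.0 M. Mitochondrially encoded genes took 21.8 to 36.1% of a library's FPM. The shares of a library's reads held by its 4 columns fell into 3 patterns: pattern A held all of weeks 1 to 12, pattern B week 16 with control libraries 1 to 3 and LIDPAD libraries 1 to 3 of week 32, and pattern C the rest of week 32 with week 48. The patterns are read from the files and are not a labelled batch.

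Cytosolic ribosomal protein RNAs were about an order of magnitude more abundant than mitochondrial ones. Per kilobase of transcript, and as the median over all 38 libraries (set across tables that were scaled separately), the median cytosolic gene stood at 99.2 FPM per kb, with the middle 50% of genes at 59.2 to 133. The median mitochondrial gene stood at 8.39 FPM per kb (3.93 to 12.3). Rpl10, a protein that joins the large subunit late in assembly, had the highest level at 327 FPM per kb. Rplp1, an acidic protein of the stalk that recruits elongation factors, followed at 265, ahead of Rps2 (229), Rps27 (213) and Rps18 (210). Among mitochondrial genes Mrps21 (29.0), Mrpl52 (27.1) and Mrpl42 (23.9) were highest.

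A few genes were far below their family, and for several of these other annotated genes share their exons. Rpl24 had 0.896 FPM per kb, and 47.0% of its exon bases also belong to Gm28037. For Rps10 (1.10 FPM per kb) the shared part was 28.7%, for Mrps34 (1.12) 77.8%, and for Mrpl53, listed at 0, 88.0%. How the authors counted reads in shared exons, reads that map to several places and strand is not given in the sources used here, so the levels of such genes are uncertain. The same holds for reads that could belong to pseudogenes: 250 of 305 genes whose symbols end in -ps were above 0, and together they held 579 to 1323 FPM per library. Among paralogs, Rpl39l was above 0 in 3 libraries, the highest at 0.151 FPM, and Rpl3l, the striated-muscle copy of Rpl3, was at 0.265 FPM or lower. Rps27l, a copy of Rps27 that p53 induces, stood at 115 FPM per kb, about as high as the middle of the family.

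On the deposited scale the median over cytosolic ribosomal protein genes was lower on LIDPAD from week 4 to week 16, and that over mitochondrial ones stayed within 0.05 of 0. On a second scale the FPM of all genes not encoded in mitochondria summed to 1000000 in each library (equal nuclear totals). There the cytosolic median was also below 0 at weeks 4 and 8 but above 0 at weeks 12 and 16. It lay below the median of all genes in these 4 weeks. Rescaling moves all genes of a library together, so this distance is nearly the same on both scales by construction. The shift was widest at week 4, where 75 of 76 tested cytosolic genes had a lower mean on LIDPAD and the median log2 change was -0.37. At that week 43 of 77 mitochondrial genes had a lower mean, with a median of -0.02, and the median over all genes tested was -0.01. Single genes differed little: among 1070 tests of a member in a week 17 were called, in 14 genes, and the widest called change was 1.54-fold. A call here is an adjusted p under 0.05 from limma over all genes tested in that week, and log2 changes are LIDPAD minus control on log2(FPM + 0.5), which understates changes of low genes.

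The ratio of both families within a library needs no scaling between libraries. Summed FPM of cytosolic genes over summed FPM of mitochondrial genes was 7.98 and 8.09 in the week 4 controls and 6.15 and 6.41 on LIDPAD. At week 8 it was 6.97 and 7.55 against 6.36 and 6.35, and at week 12 it was 7.85 and 7.77 against 6.66 and 7.01. At week 16 it was 7.81, 8.15 and 7.72 against 7.26, 7.04 and 7.58. The LIDPAD libraries thus lay below every control in each of these 4 weeks. Week 1 was a near tie, at 6.87 and 7.79 against 6.13 and 6.86. At week 32 the ratio was 6.58 to 7.74 in controls and 6.14 to 12.8 on LIDPAD, and at week 48 it was 5.83 to 7.84 and 7.21 to 7.81, so the groups overlapped in both weeks.

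**Figure D1:**
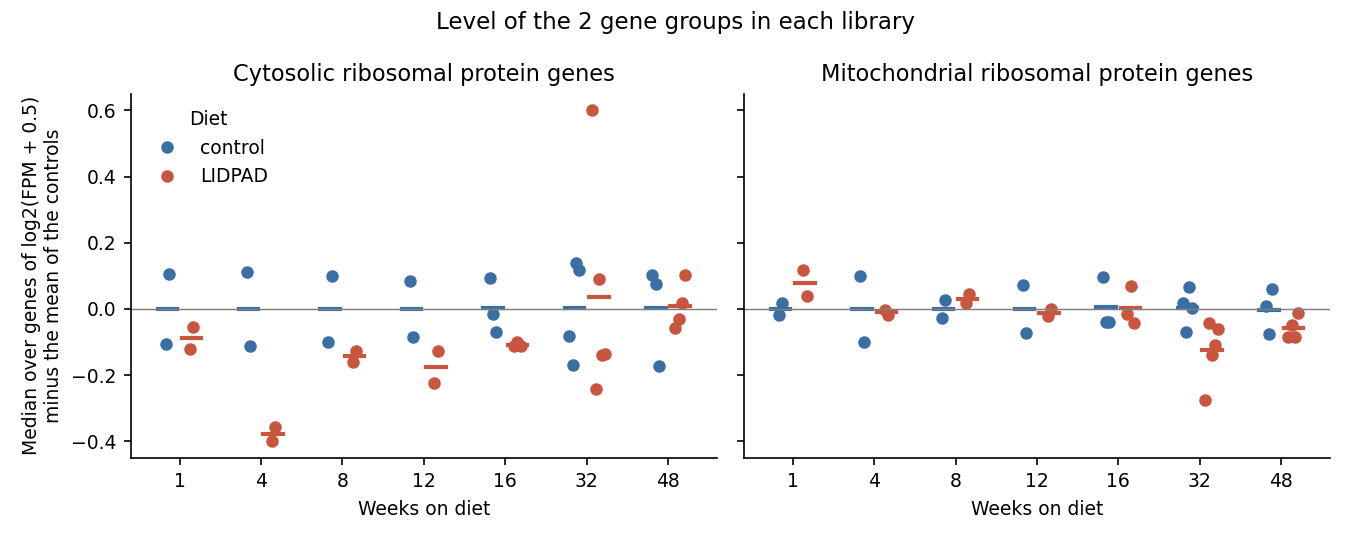
Level of cytosolic (left) and mitochondrial (right) ribosomal protein genes in each library by weeks on diet: the median over genes of log2(FPM + 0.5) minus the mean of that week's controls; points are libraries and bars group means. At week 4 both LIDPAD libraries lie at -0.40 and -0.36 for the cytosolic genes, below the controls at -0.11 and 0.11, and at week 32 LIDPAD library 1 stands alone at 0.60.

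Gene by gene, the weeks differed in how many members separated the diets. At week 1 no member was called by limma, edgeR or DESeq2 (all genes 1.99% called, 0.726% higher and 1.27% lower), with 3 cytosolic and 3 mitochondrial genes at an unadjusted p under 0.05. The median log2 change was -0.09 for 76 cytosolic genes and 0.07 for 76 mitochondrial genes, beside 0.01 for all genes. Without control library 2 the cytosolic median was 0.02, so its direction at week 1 rests on that library. LIDPAD libraries lay below all controls for 22 of 76 cytosolic genes, against 24.4% of all genes, and above them for 30 of 76 mitochondrial genes, against 24.2%.

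At week 4 no member was called by limma or edgeR and 2 cytosolic genes by DESeq2. Of all genes limma called 0.287%, and of 13237 tested DESeq2 called 175 higher and 133 lower. By limma 42 cytosolic genes, all lower, and 1 mitochondrial gene passed an unadjusted p under 0.05. LIDPAD libraries lay below both controls for 70 of 76 cytosolic genes, where 20.9% of all genes did so, and for 11 of 77 mitochondrial genes. The exceptions were Rpl11, Rpl22, Rps16, Rps26, Rps27l and Rps4l. Rpl3, which reaches into the core of the large subunit near the site of peptide bond formation, was at 188 and 168 FPM in controls and 114 and 120 on LIDPAD. Rps6, the small subunit protein that S6 kinases phosphorylate, was at 203 and 169 against 130 and 146. Rps27, a zinc-finger protein of the small subunit, was at 93.6 and 74.97 against 56.7 and 62.6. In each of these 3 the groups did not overlap, and none passed the adjusted threshold. Control library 1 was the higher of the controls, and without it the cytosolic median was -0.27.

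At week 8, 0 members were called by limma, edgeR or DESeq2 (all genes 5.6% called by limma, 3.85% higher and 1.75% lower), with 11 cytosolic and 4 mitochondrial genes at an unadjusted p under 0.05. The cytosolic median was -0.14, with 70 of 76 genes below 0, and the mitochondrial median was 0.05. Without overlap, 43 of 76 cytosolic genes were lower on LIDPAD (all genes 27.1%) and 24 of 77 mitochondrial genes higher (28.3%). Without control library 2 the cytosolic median was -0.06. At week 12 the cytosolic median was -0.18, again with 70 of 76 genes below 0, and the mitochondrial median -0.01. Lower without overlap were 48 of 76 cytosolic genes (all genes 28.2%) and 13 of 76 mitochondrial genes.

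The first calls came at week 12, where Rps18 and Rpl36 fell and no mitochondrial gene was called by limma, edgeR or DESeq2 (all genes 15.2% called, 8.99% higher and 6.25% lower). Of mitochondrial genes 4 passed an unadjusted p under 0.05. Rps18, in the head of the small subunit, was at 139 and 134 FPM in controls and 102 and 109 on LIDPAD (log2 change -0.38 ± 0.10, adjusted p = 0.0406). Rpl36, a large subunit protein found only in eukaryotes, was at 53.5 and 54.5 against 42.005 and 39.8 (-0.40 ± 0.10, adjusted p = 0.0343). Both separated the groups, and both calls were lost when 1 or the other LIDPAD library was left out, or on the scale of equal nuclear totals (adjusted p = 0.287 and 0.286). Without control library 2 the cytosolic median was -0.26, in a fit where the single control is assumed to vary like the LIDPAD pair.

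At week 16, 7 cytosolic genes fell and 4 mitochondrial genes rose (all genes 28.2% called, 12% lower and 16.3% higher), so calls among members were fewer than among all genes. The 7 were Rpl3, Rpl28, Rps28, Rps18, Rpl27a, Rps25 and Rpl36. Rpl3 was at 266, 264 and 251 FPM in controls and 186, 185 and 190 on LIDPAD (log2 change -0.48 ± 0.09, adjusted p = 0.00187). Rpl28, a large subunit protein with no bacterial counterpart, was at 75.5, 82.3 and 76.4 against 58.0, 59.2 and 58.3 (-0.41 ± 0.09, adjusted p = 0.00438). Rps28, which lies by the path where messenger RNA leaves the small subunit, was at 70.4, 61.1 and 58.3 against 48.0, 47.5 and 45.9 (-0.42 ± 0.10, adjusted p = 0.00854). In all 3 the LIDPAD libraries lay close together below every control, and all 3 calls held whichever library was left out. Rps18 (-0.33, adjusted p = 0.0212), Rpl27a (-0.29, adjusted p = 0.0401), Rpl36 (-0.34, adjusted p = 0.0483) and Rps25 (-0.27, adjusted p = 0.0470), a protein on which several viral internal ribosome entry sites depend, were closer to the threshold. The call of Rps25 was lost in each of 6 fits without a library. The cytosolic median was -0.10, with 61 of 77 genes below 0, and 28 of 77 were lower without overlap (all genes 19.7%).

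**Figure D2:**
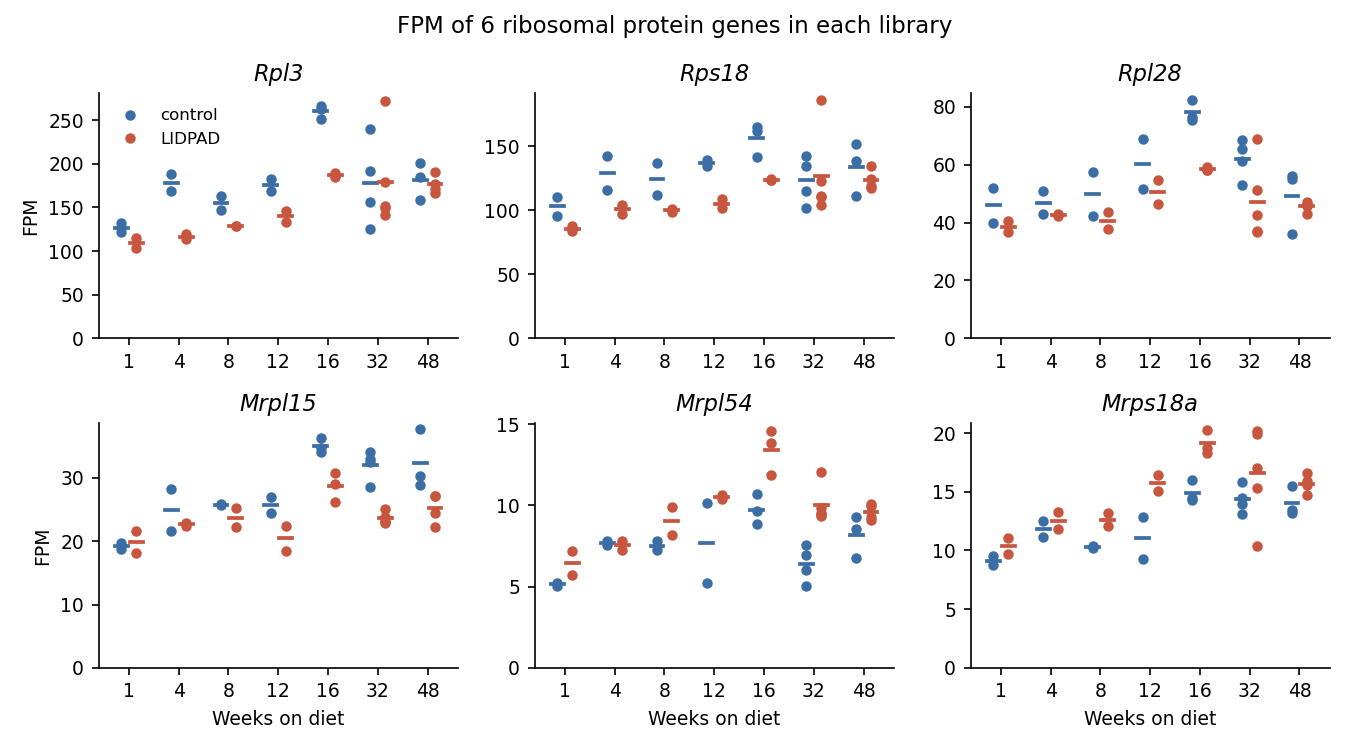
FPM of 6 genes in every library by weeks on diet; points are libraries and bars group means. Rpl3 at week 16 lies at 185 to 190 on LIDPAD and 251 to 266 in controls, Mrpl15 lies lower on LIDPAD from week 8, and Mrpl54 at week 32 lies at 9.37 to 12.1 on LIDPAD and 5.07 to 7.56 in controls.

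The genes that rose at week 16 were mitochondrial, while the median of the 77 tested mitochondrial genes was 0.00, with 38 below 0. Mrpl54, a large subunit protein of the mitochondrial ribosome without a bacterial counterpart, was at 10.7, 8.83 and 9.66 FPM in controls and 13.8, 14.6 and 11.8 on LIDPAD (log2 change 0.44 ± 0.13, adjusted p = 0.0273). Mrps18a, named for the small subunit although the protein sits in the large one, was at 16.0, 14.5 and 14.3 against 18.8, 20.3 and 18.3 (0.35 ± 0.11, adjusted p = 0.0337). Mrps33 rose by 0.39 ± 0.12 (adjusted p = 0.0354) and Mrpl16 by 0.35 ± 0.11 (adjusted p = 0.0432). The groups did not overlap in any of the 4. Each of these calls was lost in at least 4 of the 6 fits without a library, and DESeq2 called only Mrpl54 of the 4.

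At week 32, 0 cytosolic genes were called by limma, edgeR or DESeq2 and 1 passed an unadjusted p under 0.05, while 1 mitochondrial gene rose and 3 fell (all genes 26.9% called, 8.82% lower and 18% higher). The mitochondrial median was -0.12, with 55 of 77 genes below 0, and the cytosolic median was 0.02, with 35 of 77 below 0. LIDPAD libraries lay below all controls for 0 cytosolic and 5 of 77 mitochondrial genes, where 8.8% of all genes did so. Mrpl15, a large subunit protein, was at 33.0, 28.6, 32.5 and 34.03 FPM in controls and 22.9, 23.3, 23.1, 23.9 and 25.03 on LIDPAD (log2 change -0.43 ± 0.10, adjusted p = 0.00952). Mrpl55 was at 9.46, 8.29, 10.1 and 7.65 against 6.33, 6.16, 6.27, 6.55 and 5.73 (-0.48 ± 0.13, adjusted p = 0.0209). Both genes were lower on LIDPAD in every library.

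Mrps12, the counterpart of the bacterial protein in which streptomycin resistance arises, was at 14.6, 15.3, 16.6 and 11.7 FPM at week 32 against 9.73, 9.83, 13.2, 10.7 and 9.09 (-0.45 ± 0.15, adjusted p = 0.0428). Its groups overlapped, and the call was lost when the 2 LIDPAD libraries closest to each other were counted as 1 (adjusted p = 0.0765). Mrpl54 moved the other way, at 5.07, 6.01, 7.56 and 6.97 FPM in controls and 9.82, 9.53, 12.1, 9.37 and 9.43 on LIDPAD (0.62 ± 0.15, adjusted p = 0.0110). The calls of Mrpl15 and Mrpl54 held in all 9 fits without a library, those of Mrpl55 in 6 and those of Mrps12 in 2. By edgeR 1 mitochondrial gene rose and 6 fell, and by DESeq2 1 rose and 10 fell. Of all 14187 genes tested, edgeR called 2367 higher and 1495 lower, and DESeq2 called 2663 higher and 1912 lower.

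LIDPAD library 1 of week 32 stood apart and decides the cytosolic value of that week. It had the lowest depth of all libraries, 10.9 M reads, and its cytosolic genes lay 0.60 above the mean of the controls in log2, while its mitochondrial genes lay 0.27 below. Its cytosolic sum was 10805 FPM, against 6104 to 7779 in the other LIDPAD libraries. Its 6 hepatocyte markers summed to 108018 FPM, against 31031 to 38093 in the other LIDPAD libraries and 79848 to 97070 in controls. Its 3 erythroid markers summed to 1221 FPM against 203 to 242 in the other LIDPAD libraries, and its 5 B and plasma cell markers to 182 against 6.02 to 11.3. The part of these cells in its ribosomal values was not tested. Without this library the cytosolic median of week 32 was -0.12, with 57 of 77 genes below 0 and 2 called lower, and the mitochondrial median was -0.11. Within pattern B the medians were 0.19 (cytosolic) and -0.17 (mitochondrial). Within pattern C, which holds 1 control library and the 2 closest LIDPAD libraries, they were -0.24 and -0.03, with no second control to show the spread.

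At week 48 no member was called by limma (all genes 9.87% called, 6.54% higher and 3.34% lower), with 2 cytosolic genes higher, 2 mitochondrial genes higher and 7 mitochondrial genes lower at an unadjusted p under 0.05. By edgeR 1 mitochondrial gene was lower, and by DESeq2 1 cytosolic gene was higher and 4 mitochondrial genes lower. Of all 14807 genes tested, edgeR called 612 higher and 569 lower, and DESeq2 called 1290 higher and 1134 lower. The mitochondrial median was -0.06, with 52 of 76 genes below 0, and the cytosolic median 0.01. Mrpl15 was again lower in every LIDPAD library, at 22.2, 27.1, 24.5 and 27.2 FPM against 30.2, 29.0 and 37.7 (-0.34 ± 0.12, adjusted p = 0.115). Mrps7, whose bacterial counterpart starts assembly of part of the small subunit, was at 18.4, 19.8, 20.7 and 22.4 against 26.8, 22.9 and 30.5 (-0.38 ± 0.12, adjusted p = 0.0807). Control library 3 was the lowest control for the cytosolic genes, at -0.17, and without it their median was -0.07 and 7 were called.

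**Figure D3:**
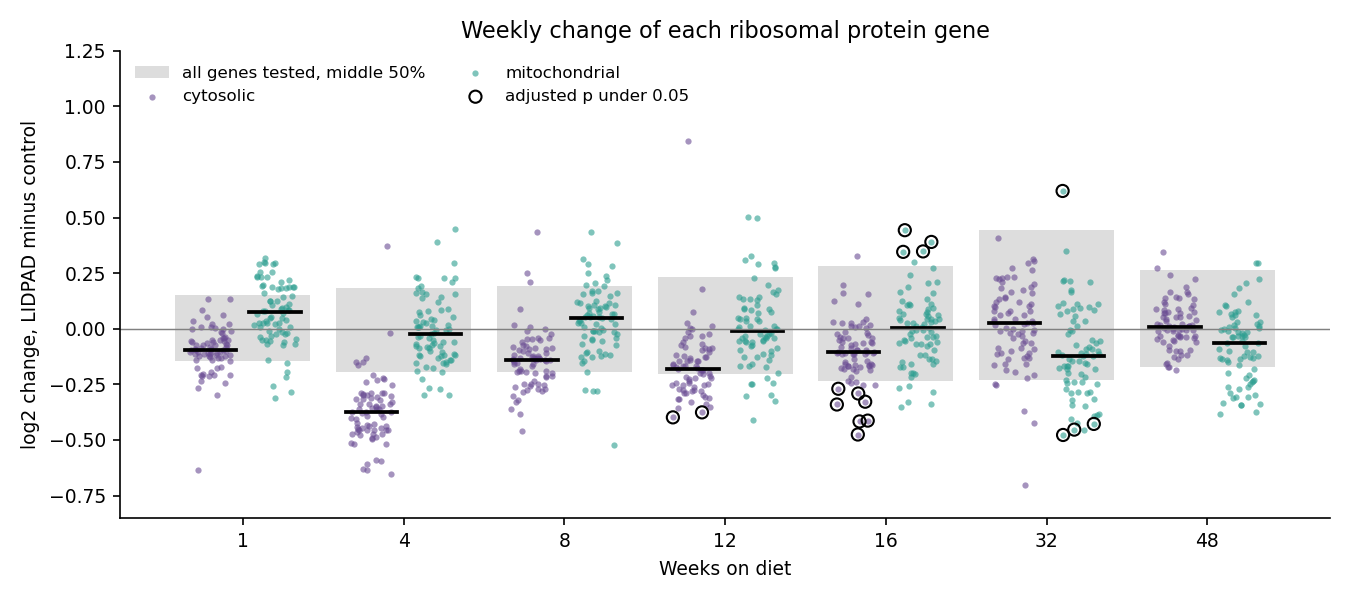
Log2 change (LIDPAD minus control) of each ribosomal protein gene by weeks on diet; points are genes, black bars medians, rings genes with an adjusted p under 0.05, and grey boxes the middle 50% of all genes tested. The cytosolic median is lowest at week 4 (-0.37), and at week 32 the mitochondrial median (-0.12) lies below the cytosolic one (0.02); on the scale of equal nuclear totals the cytosolic medians of weeks 12 to 48 are above 0.

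These directions depend on the scale. With equal nuclear totals the median of all genes moved from -0.01 to 0.10 at week 8, from 0.00 to 0.18 at week 12, from 0.00 to 0.20 at week 16, from 0.04 to 0.45 at week 32 and from 0.01 to 0.29 at week 48. At weeks 1 and 4 it moved by less than 0.1. What differed between the diets was mainly the total: at week 16 libraries summed to 1029810 to 1101890 FPM in controls and 886022 to 941830 on LIDPAD, while the share of mitochondrially encoded genes was 24.2 to 25.1% and 24.6 to 25.3%. At week 32 that share was also higher on LIDPAD, at 25.1 to 36.1% against 22.1 to 27.2%. The cytosolic median was then -0.10, -0.35, -0.03, 0.01, 0.11, 0.45 and 0.30 from week 1 to week 48, so from week 12 it was above 0. The difference from the median of all genes is nearly fixed under the rescaling, which multiplies all genes of a library by the same factor. Its near equality on both scales is therefore not further support. For cytosolic genes that difference was -0.10, -0.37, -0.13, -0.18, -0.10, -0.01 and 0.00 on the deposited scale and -0.10, -0.36, -0.13, -0.17, -0.09, 0.00 and 0.01 on the other. For mitochondrial genes it was 0.07, -0.02, 0.05, -0.01, 0.00, -0.16 and -0.08 on the deposited scale, and 0.06, -0.02, 0.06, -0.01, 0.01, -0.15 and -0.07 on the other. Single calls changed more: at week 16 the second scale called 5 cytosolic genes higher (all genes 27.5%) and 1 lower (all genes 5.45%), Rpl3 (-0.27, adjusted p = 0.0347). It called 35 of 77 cytosolic genes higher at week 32 (all genes 38.9%) and 25 at week 48 (all genes 16%).

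On the deposited scale some members separated the diets repeatedly, and these were picked out after their values were seen. In each of the 5 weeks from 1 to 16, 9 of 77 cytosolic genes and 0 of 77 mitochondrial ones were lower on LIDPAD without overlap, among them Rpl10, Rpl3, Rps18 and Rps25, where 1.95% of all genes tested in any week were so. In at least 4 of these weeks it was 21 cytosolic and 0 mitochondrial genes, where 6.67% of all genes were so. Mrpl15 was lower without overlap in 5 weeks (8, 12, 16, 32 and 48), and Mrpl54 was higher without overlap in 5. The cytosolic paralog Rps27l did not follow Rps27: at week 8 it was at 58.1 and 58.4 FPM on LIDPAD against 46.7 and 51.2, while Rps27 was at 58.1 and 62.2 against 67.2 and 77.3. Rpl22, an RNA-binding large subunit protein, overlapped between the diets in all 7 weeks, with log2 changes from -0.15 to 0.09.

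Among the stalk proteins, Rplp0, the base of the stalk, differed by -0.34, -0.18 and -0.16 at weeks 4, 8 and 12 (log2, adjusted p = 0.50, 0.38 and 0.37). Rplp1 differed by -0.37 and -0.25 at weeks 4 and 8 and by 0.23 and 0.19 at weeks 32 and 48, and Rplp2 by -0.31 and -0.28 and then by 0.12 and 0.09. None of these values passed the threshold. Rpl38, needed for translation of Hox messenger RNAs in embryos, differed by -0.40 at week 4 (51.9 and 48.0 FPM against 36.3 and 39.1). Rpl10 was at 327 and 256 against 226 and 238 FPM at week 4 and differed by -0.10 to -0.32 over the 7 weeks. Rps3, at the messenger RNA entry of the small subunit, was at 145 and 117 against 94.8 and 96.8 at week 4 (-0.44, adjusted p = 0.383) and differed by 0.02 at week 16. Both subunits shared the difference at week 4, when the median change was -22.0% over large and -25.0% over small subunit genes. Rpl13a, for which 35.4% of exon bases are shared with other genes, was low (5.87 and 5.42 against 3.23 and 3.70 FPM at week 4) and moved in either direction between weeks.

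The fixed mitochondrial index genes, which are only a part of that family, mostly overlapped between the diets. Of these index genes none but Mrps12 and Mrpl15 was called in a week. Mrpl12, the stalk protein of the mitochondrial ribosome, differed by -0.29 at week 1 and 0.39 at week 4, each without overlap and with opposite signs (adjusted p = 0.409 and 0.526). Mrpl13 and Mrps2 overlapped in all 7 weeks. Mrpl3 was higher on LIDPAD without overlap at week 1 and Mrps15 at week 8, and both overlapped in the other 6 weeks. Mrps7 was higher without overlap at week 1 (0.19) and lower without overlap at week 32 (-0.28) and week 48 (-0.38).

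Averaged over the 7 weeks in a joint fit, a comparison added after the weekly results were seen, 28 of 79 cytosolic genes fell and 0 rose, where 15.4% of all genes fell and 22.1% rose. The median was -0.12, and 77 of 79 were below 0. Of the large subunit 20 of 48 fell (median -0.12), and of the small subunit 8 of 31 (median -0.11). Of 77 mitochondrial genes 7 rose and 5 fell, with a median of -0.02. On the scale of equal nuclear totals 3 cytosolic and 34 mitochondrial genes rose and 0 of either fell, where 39.2% of all genes rose and 4.78% fell, and the median of all genes was 0.17 instead of 0.01. The mitochondrial count is thus near the share of all genes. Relative to all genes the cytosolic median was -0.13 on the first and -0.11 on the second, a distance that the rescaling hardly changes by construction.

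The 6 genes of each ribosome with the smallest p on this average are these. Rpl37a, a zinc-binding large subunit protein (-0.23 ± 0.05, adjusted p = 0.000488), Rpl8, next to the site of peptide bond formation (-0.20 ± 0.05, adjusted p = 0.00208), and Rps18 (-0.24 ± 0.06, adjusted p = 0.00354) fell. So did Rpl3 (-0.28 ± 0.07, adjusted p = 0.00439), Rpl27a (-0.25 ± 0.07, adjusted p = 0.00574) and Rpl28 (-0.26 ± 0.08, adjusted p = 0.00768). Rpl37a, Rpl8, Rpl3, Rpl27a and Rpl28 were lower in 7 of 7 weekly means and Rps18 in 6. On the other scale none of the 6 passed (adjusted p = 0.228 to 0.823).

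Among mitochondrial genes Mrpl15 (-0.23 ± 0.05, adjusted p = 0.000277), Mrps31 (-0.21 ± 0.05, adjusted p = 0.00117) and Mrpl55 (-0.17 ± 0.05, adjusted p = 0.00991) fell. Mrpl54 (0.33 ± 0.07, adjusted p = 0.000356), Mrps18a (0.25 ± 0.06, adjusted p = 0.00321) and Mrpl45, which anchors the mitochondrial ribosome to the inner membrane (0.24 ± 0.07, adjusted p = 0.00679), rose. On the other scale the 3 that rose still passed and the 3 that fell did not (adjusted p = 0.515 to 0.955). All 12 calls held without each of the 38 libraries in turn. Of all calls on the average, 17 of 28 cytosolic and 8 of 12 mitochondrial ones did so.

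**Figure D4:**
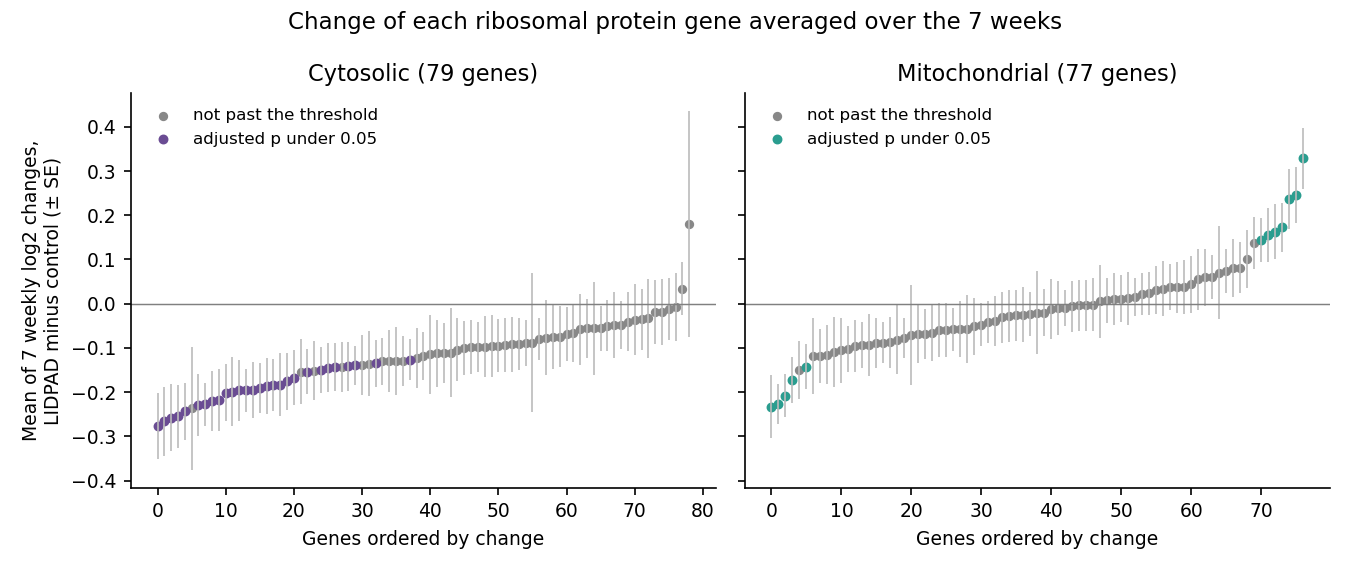
Mean of the 7 weekly log2 changes (LIDPAD minus control) with its SE for each of 79 cytosolic (left) and 77 mitochondrial (right) genes, ordered by value; coloured points have an adjusted p under 0.05. Cytosolic genes lie below 0 in 77 of 79 cases, with 28 past the threshold, and mitochondrial genes lie on both sides, with 7 higher and 5 lower past it; on the scale of equal nuclear totals 0 of these genes fell.

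Whether the diet effect differed between weeks was tested for each gene. In the F test of diet by week 0 of 79 cytosolic and 0 of 77 mitochondrial genes passed (limma, all genes 10.7%), and 1 and 2 had an unadjusted p under 0.05 in the fit, which was not repeated with edgeR or DESeq2. The smallest p-values belonged to Mrps12 (adjusted p = 0.0886), Mrps7 (adjusted p = 0.152) and Mrpl22 (adjusted p = 0.265), and among cytosolic genes to Rpl24 (adjusted p = 0.185), Rps15a (adjusted p = 0.214) and Rplp1 (adjusted p = 0.248). On the scale of equal nuclear totals 40 cytosolic and 2 mitochondrial genes passed (all genes 13.7%).

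Averages over weeks 1 to 12 and over weeks 16 to 48, also added after the weekly results, gave different counts. In the early weeks 44 of 77 cytosolic genes fell (all genes 10.3% lower), and 3 mitochondrial genes rose (all genes 11.3% higher). In the late weeks 1 cytosolic gene of 79 rose and 1 fell (all genes 24.9% higher and 16.2% lower), and 3 mitochondrial genes rose and 12 fell. The test of early against late itself called 0 of 79 cytosolic genes (limma, 18 at an unadjusted p under 0.05, median -0.17). All genes gave 11.4% with a lower and 5.1% with a higher early difference. It called 2 mitochondrial genes with a higher early difference, Mrpl22 (0.34, adjusted p = 0.0354), which lines the exit tunnel, and Mrps7 (0.27, adjusted p = 0.0377). Without LIDPAD library 1 of week 32 it called 4 cytosolic genes, and on the other scale 64, where 21.4% of all genes had a lower early difference. The early weeks are exactly the libraries of column pattern A, so time on diet and that pattern cannot be told apart here.

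Other measures also differed between the diets. The difference log2 Arntl minus log2 Dbp, a pair of clock genes that peak at opposite times of day, was lower on LIDPAD by 4.29, 4.78, 3.86 and 3.20 at weeks 1, 4, 8 and 12, with no overlap of the groups. At weeks 16, 32 and 48 it was lower by 0.81, 1.01 and 2.41, with overlap at weeks 16 and 32 and none at week 48. The part of the daily clock in the ribosomal values was not tested. Hepatocyte markers, 6 genes, had LIDPAD sums below every control at weeks 1, 4, 8, 12, 16 and 48 (at week 4, 55052 to 59682 against 66912 to 90641 FPM, and at week 16, 34837 to 43222 against 68941 to 83316). Of the 6, 1 fell at week 8, 3 at week 12, 5 at week 16, 3 at week 32 and 1 at week 48 (all genes 1.75, 6.25, 12, 8.82 and 3.34% lower). In whole liver, fewer cells of a type and less RNA per cell cannot be told apart.

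Markers of several other cell types rose from week 8 (all genes 3.85, 8.99, 16.3, 18 and 6.54% higher from week 8 to week 48). Of 6 recruited macrophage markers 5, 5, 6, 6 and 5 rose from week 8 to week 48, with summed levels of 39.8 to 42.1 against 9.05 to 10.8 FPM at week 8 and 109 to 171 against 15.2 to 17.2 at week 16. At week 4, where the cytosolic genes were lowest, these markers summed to 10.1 and 15.4 FPM on LIDPAD and to 10.0 and 60.1 in controls. All 5 Kupffer cell markers were below 0 at week 4 and 1 of them fell, with sums of 130 to 169 against 186 to 238 FPM. From week 8 to week 48, 1, 1, 2, 1 and 1 of the Kupffer cell markers rose, with 1 fall at week 48. They did not move together: 0, 2, 2, 3 and 2 of the 5 were below 0 in these weeks, with a median of -0.86 at week 32. Of 5 stellate cell markers 1, 3, 4, 3 and 4 rose over the same weeks, and of 4 dividing cell markers 3, 4, 3, 4 and 0, with sums of 17.2 to 18.3 against 3.65 to 4.36 FPM at week 8. Of 4 cholangiocyte markers 2 rose at week 16 and 3 at week 32. Sinusoidal endothelial markers gave at most 1 call in a week, and the 3 erythroid markers gave 0 calls by limma in any week, with up to 2 at an unadjusted p under 0.05. T and NK cell markers, 5 genes, summed to 2.58 FPM or lower through week 16. At week 32, 1 of them rose and at week 48, 2 rose, with sums of 3.94 to 6.85 against 1.32 to 2.42 FPM at week 48. Of 5 B and plasma cell markers 1 rose at week 32 and 3 at week 48. Of the 3 neutrophil markers Retnlg was at 0 in every library of week 1. At week 16 the 3 summed to 1.59 to 3.59 FPM on LIDPAD against 0.286 to 1.01 in controls. At weeks 32 and 48, 2 of them were tested, with medians of 0.98 and 0.90 and 0 calls by limma, and the sums overlapped. The part of these cells in the ribosomal values was not tested.

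Across libraries, cytosolic genes varied together more strongly than mitochondrial genes did. After each group's mean was removed, the median correlation of log2 values between pairs of 75 cytosolic genes over 38 libraries was 0.734. It was 0.183 between pairs of 73 mitochondrial genes, -0.051 between genes of different ribosomes and 0.001 between pairs among 9013 genes with a median of at least 5 FPM, the same minimum as for the members. Without LIDPAD library 1 of week 32 the values were 0.573, 0.169, 0.087 and 0.001. These describe libraries that share depth and scaling, and genes of a library are not independent. The families were not matched in level: cytosolic RNAs were about an order of magnitude more abundant, and counting noise weighs more on low counts. The part of counting noise in the lower mitochondrial correlation was not tested.

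The rRNAs of the mitochondrial ribosome were compared beside its proteins. mt-Rnr1, of the small subunit, was at 22201 to 30439 FPM in the week 16 controls and 16653 to 18845 on LIDPAD (log2 change -0.53 ± 0.30). At week 48 it was at 29200 to 36252 against 19665 to 23408. It was lower without overlap at weeks 1, 8, 12, 16 and 48. mt-Rnr2, of the large subunit, was lower without overlap at weeks 4, 8, 12 and 16. These values are on the deposited scale, on which LIDPAD libraries had lower totals at week 16. As a share of a library's FPM, both rRNAs together took 20.0, 21.2 and 20.8% in the week 16 controls. On LIDPAD they took 20.9, 20.6 and 21.4%, so these shares overlapped. Neither was called in any week, but limma's SE at this abundance was 0.29 to 0.85 for mt-Rnr1 and 0.62 to 2.89 for mt-Rnr2, wide beside the differences. The missing calls therefore carry little information, and these values are a description.

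Ribosomal proteins whose symbols fall outside the naming rule gave few calls (all genes 28.2% called at week 16 and 26.9% at week 32). Of 8 cytosolic ones (6 or 7 tested a week), Rpl22l1, the paralog of Rpl22, fell at week 16 (12.7 to 14.9 against 9.07 to 11.7 FPM, -0.40 ± 0.13, adjusted p = 0.0438), and Rpl7l1 fell at week 32 (-0.41 ± 0.10, adjusted p = 0.00879). At week 4 all 6 tested were below 0, with a median of -0.43. Of 5 mitochondrial ones, Dap3, a GTP-binding small subunit protein, rose at week 32 (0.38 ± 0.12, adjusted p = 0.0395), and Aurkaip1 fell (-0.38 ± 0.13, adjusted p = 0.0485).

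Cytosolic translation factors gave 0 calls by limma at weeks 1 and 4 (3 of 45 each at an unadjusted p under 0.05, all genes 1.99 and 0.287% called). Lower ones followed: 2, 2, 5, 9 and 2 of 45 from week 8 to week 48. Of all genes 1.75, 6.25, 12, 8.82 and 3.34% were called lower in these weeks. Larp1, which binds TOP messenger RNAs, was at 117 and 117 FPM in the week 8 controls and 76.4 and 88.9 on LIDPAD (log2 change -0.50 ± 0.11, adjusted p = 0.0498). At week 16 it was at 110, 129 and 138 against 75.8, 74.6 and 79.6 (-0.70 ± 0.10, adjusted p = 0.000518). It fell by 0.57, 0.75 and 0.51 at weeks 12, 32 and 48 (adjusted p = 0.0234, 0.00254 and 0.0212), so it was called in 5 weeks, more often than any ribosomal protein gene. Eif4ebp2, a repressor of the cap-binding factor eIF4E, fell by 0.44, 0.76 and 0.88 at weeks 12, 16 and 32 (adjusted p = 0.0195, 0.00327 and 0.00054). Eif1a, a factor of start-codon scanning, fell at week 8 (-0.52, adjusted p = 0.0418), and Abce1, which recycles ribosomes, fell at week 48 (-0.30, adjusted p = 0.0372).

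Genes with and without a TOP start at the annotated position had similar medians. On the average over weeks the 14 genes with a TOP start had a median log2 change of -0.13 with 4 called, and 43 without one had -0.11 with 15 called. These are counts over the genes in the RefSeq table, with no test, and the 14 include the pseudogene Rpl32l. A start annotated a few bases off hides the motif, so the genes counted as without it may include TOP genes. The split therefore cannot decide whether TOP genes changed differently.

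Ribosome assembly factors, 60 genes, were called in both directions, with 0 calls by limma at weeks 1, 4 and 8 (3, 4 and 7 at an unadjusted p under 0.05). All genes gave 1.99, 0.287 and 5.6% called in these 3 weeks. Of all genes 8.99, 16.3 and 18% rose at weeks 12, 16 and 32, and 12, 8.82 and 3.34% fell at weeks 16, 32 and 48. Riok2, a kinase of late small subunit maturation, rose at week 12 (9.26 to 9.78 against 13.4 to 15.1 FPM, 0.56 ± 0.14, adjusted p = 0.0258). At week 16, 5 of 59 rose and 1 fell, with Eif6, which keeps new large subunits from joining early (0.66 ± 0.10, adjusted p = 0.00049), and Rrp12 (0.65 ± 0.15, adjusted p = 0.00791) among those that rose. At week 32, 2 rose and 8 fell, with Nop16 (-0.55 ± 0.12, adjusted p = 0.00726) and Rrs1 (-0.58 ± 0.13, adjusted p = 0.00748) among those that fell. At week 48 Ftsj3 (-0.43, adjusted p = 0.0245) and Bysl (-0.57, adjusted p = 0.0454) fell.

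Factors of mitochondrial translation and ribosome assembly, 48 genes, gave 0 calls by limma at weeks 1, 4, 8 and 12, with 6, 2, 2 and 5 at an unadjusted p under 0.05. All genes gave 1.99, 0.287, 5.6 and 15.2% called in these weeks, and 12, 8.82 and 3.34% called lower at weeks 16, 32 and 48. Nsun4, a methyltransferase of mitochondrial rRNA, fell by 0.36 and 0.57 at weeks 16 and 32 (adjusted p = 0.0405 and 0.0142). Lrpprc, which stabilises mitochondrial messenger RNAs, fell at week 32 (-0.53 ± 0.14, adjusted p = 0.0175), and Mtif3, an initiation factor, fell at week 48 (-0.42 ± 0.10, adjusted p = 0.0432). Nuclear genes of the respiratory chain, which the mitochondrial ribosome's products complete, were mostly below 0 at weeks 16, 32 and 48. On the deposited scale 38, 41 and 44 of 44 were so, with medians of -0.08, -0.16 and -0.17. Of all genes tested 49.8, 46.3 and 48.3% were below 0. With equal nuclear totals the median of all genes was 0.20, 0.45 and 0.29 in these weeks, so this direction depends on the scale. Of these 44 genes 1 rose and 1 fell at week 16 (all genes 16.3% higher and 12% lower). At week 32, 1 fell (all genes 8.82% lower), and at week 48, 2 fell (all genes 3.34% lower).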

How the data were processed

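Liver RNA was taken up in TRIzol, purified on a kit and made into Illumina libraries by a service provider, per the labels' protocols. For each of 7 feeding durations the authors deposited a table of signal values in FPM (each column's counts scaled by its own size factor). The submitters' processing notes name HISAT2, featureCounts, DESeq2 and GRCm38. Tool versions, strand setting and the handling of multi-mapping reads are not given in the sources used here. Undoing the scaling gave integers, to a tolerance of 0.02 reads, for 100% of the values, and edgeR and DESeq2 were run on these integer counts.

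Columns of a group with a chi-square per gene under 2.5 (genes with 200 to 2000 pooled reads) were merged, which gave blocks of 4 columns. A separate limma fit (version 3.58.1, R 4.3.3, two-sided) on log2(FPM + 0.5) was made for each week. It took genes that reached 1 FPM in a number of libraries equal to the size of the smaller group. P-values were adjusted over all genes tested by the Benjamini-Hochberg method. A joint limma fit of 14 group means gave the averages and the differences between weeks. The weekly limma fit was tested on simulated data for weeks 4, 16 and 32, with a variability between libraries that was not taken from these data. That simulation did not cover the joint fit, edgeR or DESeq2. Alternatives were a pseudocount of 0.1, no filter, rescaling to equal totals of genes not encoded in mitochondria, edgeR 4.0.16, DESeq2 1.42.0, a replicate block and each library left out. Each column as a sample, the 2 closest libraries as 1, and the averages were chosen after seeing the data. Library numbers follow the column numbers in the labels and do not pair the diets.

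The members and lists were chosen with earlier results of these data known. Named are fixed index genes, the called members with the 3 smallest p per week and subunit class, called members moving against their family, the 3 smallest p per ribosome in the F test, both mitochondrial rRNAs and the 2 smallest p of each companion list. Other genes were named after their values were seen. Python 3.11.15 with pandas 2.3.3 and numpy 2.4.6 made the tables, and matplotlib 3.10.9 the plots. Some items are not reported here.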

Additional observations from a re-analysis of the deposited data

Results flagged for a closer look

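Of 114 groups of 4 or 5 libraries checked for members named in the text, 9 held a library far outside the others, where chance alone gives about 1 in 20. Of the 9, 5 were LIDPAD library 1 of week 32, which had the lowest depth and stood high for the cytosolic genes as a whole. Its values were 195 FPM for Rpl27a (others 99.5 to 116), 186 for Rps18 (104 to 123) and 164 for Rps25 (75.4 to 97.8). It also had 162 FPM for Rps27 (67.0 to 84.3) and 253 for Rps6 (129 to 165). Mrpl54 stood at 12.1 FPM in LIDPAD library 3 of week 32 (others 9.37 to 9.82), on the same side of the controls as the others. Mrpl55 stood at 7.39 FPM in LIDPAD library 1 of week 48 (others 5.22 to 5.51). Rps25 stood at 115 FPM in LIDPAD library 4 of week 48 (others 94.7 to 97.9). Rpl3l was at 0.114 FPM in LIDPAD library 2 of week 32 and at 0 in the others.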

How the results depend on the processing

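The difference of medians, mitochondrial minus cytosolic, was 0.17, 0.35, 0.19, 0.17, 0.11, -0.15 and -0.07 from week 1 to week 48, and ranged with 1 library left out over 0.08 to 0.25, 0.33 to 0.40, 0.14 to 0.23, 0.11 to 0.20, 0.045 to 0.15, -0.21 to 0.01 and -0.15 to 0.01. It was above 0 in every such fit of weeks 1 to 16, changed sign at weeks 32 and 48, and was 0.21 at week 32 within column pattern C alone.

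Counts of called genes were unstable. With 1 library left out, cytosolic counts ran from 0 to 0, 0 to 2, 0 to 11, 0 to 33, 3 to 7, 0 to 2 and 0 to 7 over the weeks, and mitochondrial counts from 0 to 0, 0 to 0, 0 to 0, 0 to 4, 0 to 3, 2 to 6 and 0 to 6. At week 8 the 11 came without control library 1, and at week 12 the 33 (3 higher and 30 lower) and 4 without control library 2. In these fits of weeks 1 to 12 the arm left with 1 library is assumed to vary like the other. At week 48 the 7 and 6 came without control library 3. On the average of the weeks they ran from 17 to 43 and from 9 to 13. Without LIDPAD library 1 of week 32 the early-late test called 4 cytosolic and 2 mitochondrial genes. Treating each column as a sample, which takes parts of a library for replicates, gave 15, 68, 43, 51, 35, 17 and 13 cytosolic and 6, 3, 8, 11, 14, 22 and 21 mitochondrial genes. The share of all genes called in these fits is not given, so the counts show nothing particular to the members.

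Rescaling to equal nuclear totals gave 0 cytosolic and 1 mitochondrial gene at week 12, 8 mitochondrial at week 16, 35 and 16 at week 32, 25 and 3 at week 48, 40 and 2 for diet by week, 3 and 34 on the average, and 64 and 4 for early against late. DESeq2 gave 2 cytosolic genes at week 4, 1 mitochondrial at week 16, 11 mitochondrial at week 32, and 1 cytosolic and 4 mitochondrial at week 48. With edgeR there were 1 cytosolic gene at week 12, 7 mitochondrial at week 32 and 1 mitochondrial at week 48. Without the filter, where more genes share the adjustment, 0 cytosolic genes were called at week 12, and 4 cytosolic and 1 mitochondrial at week 16. Pattern B alone gave 1 cytosolic and 2 mitochondrial genes at week 32, and pattern C alone, with 1 control against the 2 LIDPAD libraries closest to each other, 46 and 13. The average over weeks 1 to 12 gave 44 cytosolic and 3 mitochondrial genes, and that over weeks 16 to 48 gave 2 cytosolic genes. Except for the filter and the fewer libraries, the cause was not tested. Where the share of all genes in the same fit is not given, a count shows nothing particular to the members.

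Library numbers follow the column numbers in the labels and do not pair the diets: same-numbered libraries correlated at -0.116 to 0.123 after group means were removed. A fit with the replicate number as a block gave 1 mitochondrial gene at weeks 12 and 16, and 1 cytosolic and 2 mitochondrial genes at week 32. Of 17 weekly calls 10 passed with the block.

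Depth of 10.9 to 53.8 M reads leaves the low paralogs near single reads, and weeks 1 to 12 hold only 2 libraries a diet.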
